A study of Homo sapiens with 18 samples.

Results

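The aminoacyl-tRNA synthetases are the enzymes that join each amino acid to its tRNA. A list of 36 of their genes was followed here by symbol through 3 tables of RNA levels, 20 coding for the cytosolic and 16 for the mitochondrial enzymes, whose symbols end in 2. The RBCK1 and ANKRD35 tables each hold 58735 genes and all 36 of these, and the MITD1 table holds 29928 symbols and 18 of them. The cells were labelled as kidney and as 786-O, an established clear cell renal carcinoma line, in 18 RNA-seq libraries that fall into 6 groups of 3. The group shRBCK1 was set against shcontrol (a short hairpin RNA against RBCK1, a subunit of the linear ubiquitin chain assembly complex, or a control hairpin). The group siANKRD35 was set against sicontrol_for_siANKRD35, and siMITD1 against sicontrol_for_siMITD1 (a small interfering RNA against the ankyrin repeat gene ANKRD35 or the cytokinesis gene MITD1, or a control). All groups were grown in the same serum-containing medium, and the labels name no drug, time point or clone. The series title links the 3 targeted genes to one axis, and the question for the synthetases is which of their RNAs differed between each knockdown and its own control.

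Each synthetase first activates its amino acid with ATP and then transfers it to the matching tRNA, so that the ribosome reads the codon correctly. The cytosolic enzymes serve the ribosomes of the cytoplasm, and part of them sit in the multisynthetase complex on the scaffold proteins AIMP1, AIMP2 and EEF1E1. The mitochondrial enzymes are coded in the nucleus, imported, and charge the tRNAs that read the mitochondrial genome. GARS and KARS each give rise to a cytosolic and a mitochondrial form, and EPRS charges both glutamic acid and proline. When amino acids run short, the transcription factor ATF4 is known to raise many cytosolic synthetase genes through amino acid response elements, and WARS is known as the member that interferon gamma induces.

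Promoter stretches whose letters match these elements are shown first, since the results on the genes called lower refer back to them. Windows of 300 bases around the RefSeq gene start (250 before and 50 after, GRCh38.p14) matched 30 of the 36 genes by their present symbol, and DARS, LARS, VARS, YARS, AARS2 and VARS2 had no match. The core of the amino acid response element was searched as TGATGNAA on either strand (TTNCATCA when read from the other strand), and the interferon-stimulated response element, named here without its letters, was searched on either strand too. Each line gives 28 or 30 bases of the gene's own strand, 5′ to 3′, with the match in capitals.
AARS, chr16:70289676-70289703, minus strand: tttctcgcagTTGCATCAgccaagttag
CARS, chr11:3057408-3057435, minus strand: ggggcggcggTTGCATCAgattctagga
GARS, chr7:30594835-30594862, plus strand: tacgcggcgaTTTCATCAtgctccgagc
MARS, chr12:57488054-57488081, plus strand: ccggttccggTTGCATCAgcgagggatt
TARS, chr5:33440957-33440984, plus strand: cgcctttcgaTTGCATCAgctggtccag
IARS, chr9:92293693-92293720, minus strand: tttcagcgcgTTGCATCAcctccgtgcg
NARS, chr18:57621805-57621832, minus strand: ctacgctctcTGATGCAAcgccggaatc
WARS, chr14:100375383-100375412, minus strand: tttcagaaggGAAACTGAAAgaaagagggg
The first 7 lines are the cytosolic genes with the amino acid response core, and the last is the interferon-type match of WARS.

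The amino acid response core was found in 7 of 16 matched cytosolic genes and in 1 of 14 mitochondrial ones, YARS2. It was found in 3.62% of all 35116 windows. The interferon-type letters were found in WARS and EARS2 and in 3.57% of all windows. Another motif, the gamma-activated site TTCNNNGAA (the same letters on both strands), was found in CARS, TARS, WARS, PARS2 and WARS2 and in 7.66% of all windows. For a gene with several windows a match in any of them was counted. This held for 9 genes, CARS, GARS, SARS, TARS, WARS, CARS2, EARS2, FARS2 and WARS2. A share of genes is therefore not the same measure as a share of windows. A match is a description of letters and says nothing about binding in these cells.

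The values are FPKM, fragments per kilobase of gene scaled to the size of the library, and a log2 change is the knockdown mean less the control mean of log2(FPKM + 1), a scale on which low genes seem to change less than they do. Testing with limma covered genes that reached 1 FPKM in 3 or more of a table's 6 libraries, and a gene is called where the adjusted p (Benjamini-Hochberg over all genes tested) is under 0.05. Reads per library, recovered from the values, were 16346478 to 18648246 in the RBCK1 table, 17502646 to 19034974 in the ANKRD35 table and 13068595 to 14276821 in the MITD1 table (there over genes whose reads came out whole). The lowest count behind a tested synthetase in any library was that of PARS2, with 117, 85 and 120 reads in the 3 tables. No label states that replicates were separate cultures, so p-values reflect the spread of these libraries alone, and that spread may be technical. In bulk RNA fewer cells with a given RNA and less of it per cell cannot be told apart.

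Each targeted gene was lower in the libraries labelled as its knockdown, and the control levels stood apart between tables. RBCK1 measured 487, 491.7 and 462 FPKM in shcontrol and 30.8, 32.0 and 32.9 in shRBCK1, while the control means of the other tables were 70.8 and 65.5 FPKM. ANKRD35 measured 753, 687 and 742 FPKM in its control and 0, 0 and 0.0332 in siANKRD35, and 0 to 0.0392 in every library of the other tables. MITD1 fell from 7.16, 7.42 and 7.83 to 2.43, 2.66 and 3.03 FPKM. Of the renal carcinoma markers, PAX8 was at 17.5 FPKM or more in all 18 libraries, but CDH6 was listed at 0 in all 6 libraries of the ANKRD35 table and measured 13.3 to 28.8 FPKM in the other 12. EPCAM, an epithelial marker on the list for other cells, measured 19.2 to 21.5 FPKM in the ANKRD35 table and 0.582 to 1.96 FPKM elsewhere. The 7 renal markers summed to 763 FPKM or more in shcontrol and 613.4 to 639.9 in shRBCK1, to 1008 to 1049 in the ANKRD35 control and 1253 to 1560 in siANKRD35, and to 783.4 to 800.5 in the MITD1 control and 824.6 to 840.6 in siMITD1, and their part in the synthetase values was not tested. The 7 markers of other cells (6 in the MITD1 table) summed to 2.46 to 3.76, 19.6 to 21.9 and 4.18 to 5.57 FPKM in the RBCK1, ANKRD35 and MITD1 tables, with the blood marker PTPRC at 0.0158 FPKM or less in all 18 libraries. CDKN2A and CDKN2B, looked up after these values were seen, were listed at 0 in the 12 libraries of the RBCK1 and MITD1 tables. In the ANKRD35 table CDKN2A measured 0.207 to 0.462 FPKM and CDKN2B 2.07 to 7.1 FPKM. Whether the ANKRD35 libraries hold the same cells as the others was not tested, and tests were run only within a table. Whether the control libraries of the RBCK1 and ANKRD35 tables carry added copies of RBCK1 or ANKRD35 was not tested either, so each knockdown is described only against its own control.

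Under control conditions the cytosolic synthetase RNAs were more abundant than the mitochondrial ones. In shcontrol the 20 cytosolic genes ranged from 9.14 FPKM (CARS) to 77.1 FPKM (TARS) with a median of 37.6, and the 16 mitochondrial genes from 0.381 (SARS2) to 33.6 (IARS2) with a median of 7.40. At the top of the cytosolic order TARS (77.1 ± 0.986, SD, n = 3) and GARS (76.5 ± 0.627) lay within each other's spread, and KARS (70.2 ± 1.64) lay below both. In the ANKRD35 control the order was led by GARS (131 FPKM) and AARS (112 FPKM), and IARS2 and YARS2 (46.5 and 34.6 FPKM) led the mitochondrial enzymes. IARS2 and YARS2 also led in the MITD1 control, with 50.9 and 17.6 FPKM.

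For 13 amino acids a single gene serves each compartment, and in 12 of these 13 pairs the cytosolic gene had the higher FPKM, in the RBCK1 and in the ANKRD35 control alike. The ratio of cytosolic to mitochondrial FPKM had a median of 4.73 in shcontrol and 3.94 in the ANKRD35 control. The isoleucine pair was nearly level, with IARS at 36.2 and IARS2 at 33.6 FPKM in shcontrol (ratio 1.08) and at 47.4 and 46.5 FPKM in the ANKRD35 control (ratio 1.02). Histidine was the exception in shcontrol, with HARS at 12.5 and HARS2 at 15.2 FPKM, and tyrosine in the ANKRD35 control, with YARS at 31.6 and YARS2 at 34.6 FPKM. The most uneven pair was SARS and SARS2, 48.4 against 0.381 FPKM in shcontrol. SARS2 stayed between 0.138 and 0.871 FPKM in all 18 libraries and was tested in no table. In GENCODE 29, 46.2% of its exonic bases are shared with another gene on the same strand, and how the authors counted such bases is not given in the sources used here.

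**Figure D1:**
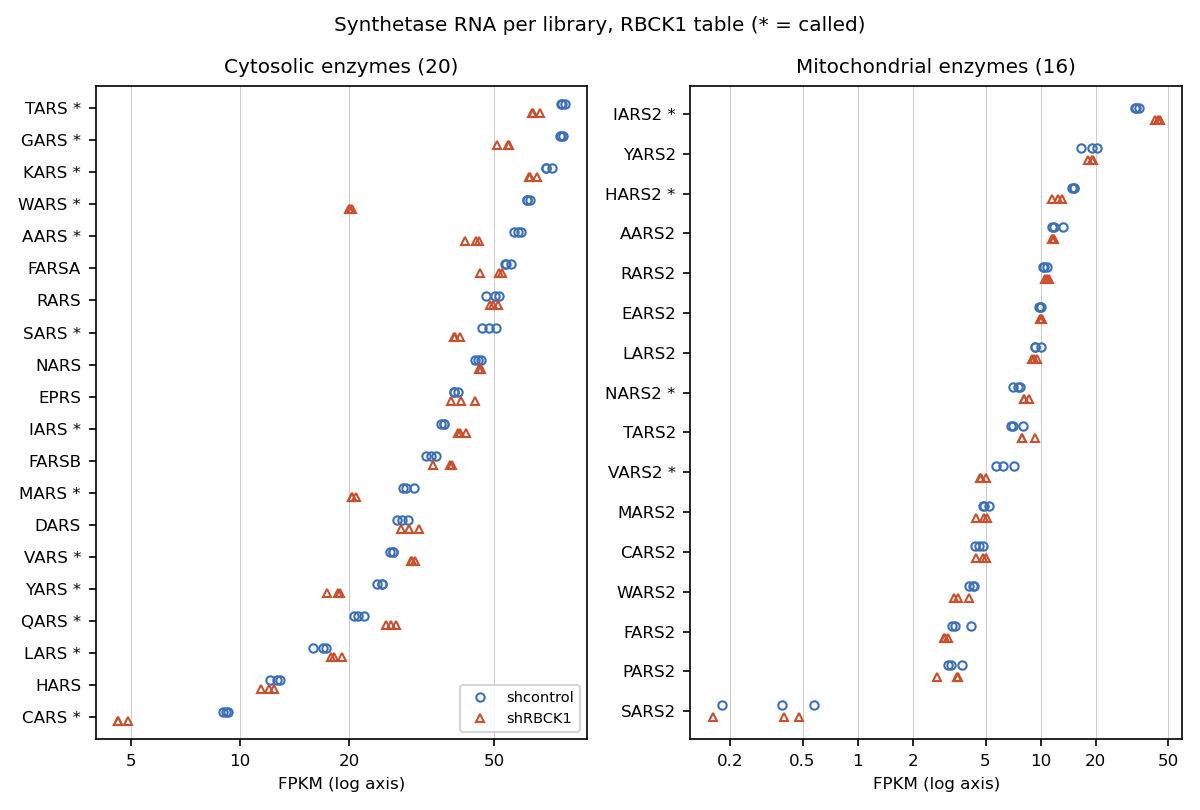
FPKM of each synthetase in each of the 3 shcontrol libraries (circles) and 3 shRBCK1 libraries (triangles), on log axes, with cytosolic genes on the left and mitochondrial genes on the right, ordered by control mean. An asterisk marks a call in limma. WARS stands out, with all 3 knockdown libraries near 20 FPKM against about 62 in the controls, and SARS2 lies far below the others.

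In the RBCK1 knockdown, RNAs of the cytosolic synthetases WARS, CARS, GARS, MARS, AARS and YARS fell, while those of QARS, VARS, IARS and LARS rose by small amounts. Of the 20 cytosolic genes 9 were called lower and 4 higher, and of the 15 mitochondrial genes tested 2 were called lower and 2 higher. Over all 12227 genes tested 49.1% were called, 24.9% lower and 24.1% higher (51%, 26% and 25% after a length and GC correction), so the mitochondrial share called was below the share over all genes and the cytosolic share called lower, 45%, above it. The median log2 change was −0.09 over the cytosolic genes, −0.04 over the mitochondrial genes and 0.01 over all genes.

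WARS, the tryptophanyl-tRNA synthetase, measured 61.72, 62.65 and 61.55 FPKM in shcontrol and 20.32, 20.1 and 19.99 FPKM in shRBCK1. The groups stood far apart and the libraries of each group nearly coincided. The mean fell by 67.5%, a log2 change of −1.57 (SE 0.028, limma adjusted p = 1.65e-08), the largest among the 35 synthetases tested there. The gene lies on chromosome 14 at 100333788 to 100376805 of GRCh38, minus strand, and 10.6% of its exonic bases overlap genes of the other strand.

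CARS, which charges cysteine, measured 8.97, 9.27 and 9.18 FPKM in the controls and 4.61, 4.61 and 4.93 FPKM in the knockdown. Its log2 change of −0.83 (SE 0.043, limma adjusted p = 6.58e-06) came from the lowest level among the cytosolic genes. GARS, the glycyl-tRNA synthetase, fell from 77.2, 76.2 and 76.1 to 54.7, 54.9 and 51.0 FPKM (log2 change −0.51, limma adjusted p = 3.60e-05). From the second highest level in the controls it thus ended below TARS and KARS, whose knockdown means were 64.7 and 63.5 FPKM.

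MARS, which loads methionine and so also serves initiation, fell from 30.2, 28.6 and 28.0 to 20.4, 20.9 and 20.3 FPKM (log2 change −0.48, limma adjusted p = 5.51e-05). Its exons share 12.4% of their bases with genes of the other strand. One of these is the stress gene DDIT3, named for this overlap, which fell from 21.4, 19.9 and 21.7 to 7.30, 6.43 and 6.49 FPKM. The counting strand is not given in the sources used here, so reads of the 2 genes in shared bases cannot be told apart. AARS, the alanyl-tRNA synthetase, fell from 59.3, 58.1 and 56.6 to 45.4, 41.6 and 44.4 FPKM (log2 change −0.40, limma adjusted p = 0.000191). YARS, the tyrosyl-tRNA synthetase, fell from 24.6, 24.6 and 23.8 to 18.5, 18.8 and 17.4 FPKM (log2 change −0.40, limma adjusted p = 0.000178). The control and knockdown libraries did not overlap in these 6 genes, as in 99.2% of all genes called lower in this comparison. The other 3 called lower were SARS, TARS and KARS, with log2 changes of −0.29, −0.25 and −0.14. KARS was not called with quantile normalization (−0.06, limma adjusted p = 0.147) or with voom (−0.08, limma adjusted p = 0.0658).

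Of the multisynthetase complex, 3 of 8 enzymes were called higher, 2 lower and 3 not called, with a median log2 change of 0.07. QARS, the glutaminyl-tRNA synthetase, rose from 21.2 ± 0.677 to 26.0 ± 0.826 FPKM (log2 change 0.28, limma adjusted p = 0.000857), and IARS and LARS by 0.16 and 0.13. Among the 12 cytosolic genes outside the complex 7 were called lower and 1, VARS, higher, with a median of −0.27. Called lower were 25% of the enzymes of the complex and 58.3% of those outside it, against 24.9% over all genes. Called higher were 37.5% and 8.33%, against 24.1% over all genes. The scaffold genes AIMP1 and AIMP2 fell from 23.1 ± 0.345 to 19.5 ± 0.974 and from 34.1 ± 0.824 to 28.6 ± 2.26 FPKM, and EEF1E1 measured 6.597 ± 0.711 and 6.84 ± 0.767 FPKM and was not called (limma adjusted p = 0.712). The 7 cytosolic genes that were not called had log2 changes between −0.12 and 0.12, with 95% confidence limits from −0.25 to 0.25 over them.

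The 20 cytosolic genes together reached 817 ± 8.32 FPKM in the controls and 708 ± 9.96 FPKM in the knockdown (SD, n = 3). Without WARS the sums were 755 ± 7.87 and 688 ± 9.84 FPKM. The median over the cytosolic genes was 37.6 ± 0.444 FPKM in the controls and 37.7 ± 1.11 FPKM in the knockdown, a difference smaller than the spread between libraries. Without WARS this median was 36.2 ± 0.387 and 38.7 ± 0.367 FPKM, higher in the knockdown by more than that spread while the sum was lower.

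Among the mitochondrial enzymes IARS2 and NARS2 rose and VARS2 and HARS2 fell. IARS2, the most abundant of them, measured 32.8, 34.6 and 33.3 FPKM in the controls and 43.6, 44.8 and 42.1 FPKM in the knockdown (log2 change 0.36, limma adjusted p = 0.000202). VARS2, which charges valine in the organelle, measured 6.27, 7.20 and 5.69 FPKM and then 4.67, 4.71 and 5.00 FPKM (log2 change −0.34, limma adjusted p = 0.00773). HARS2 fell from 14.9, 15.3 and 15.2 to 13.1, 12.4 and 11.6 FPKM (log2 change −0.28, limma adjusted p = 0.00274). NARS2 measured 7.09, 7.75 and 7.55 FPKM and then 8.09, 8.12 and 8.69 FPKM, close to the limit of the test (log2 change 0.14, limma adjusted p = 0.0498). The groups did not overlap in any of the 4 genes, as in 99.1% of all genes called in this comparison. Valine and isoleucine thus had a called gene in each compartment: VARS rose and VARS2 fell, and IARS and IARS2 both rose. Of the exonic bases of VARS2, 22% are shared with GTF2H4 on the same strand. How such bases were counted is not given in the sources used here, so reads of VARS2 and GTF2H4 there cannot be told apart. The other 11 mitochondrial genes tested lay between −0.19 and 0.17. Their summed level, with SARS2 included among the 16, was 152 ± 2.32 FPKM in the controls and 158 ± 1.29 in the knockdown.

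Of the 8 matched cytosolic genes that were called lower, 5 (AARS, CARS, GARS, MARS and TARS) carried the amino acid response core shown above. It was also present in 1 of the 2 matched genes called higher, IARS, and in 1 of 6 that were not called, NARS. Of the matched mitochondrial genes only YARS2 carried it, and YARS2 was not called (log2 change 0.02, limma adjusted p = 0.853). ATF4 itself fell from 215 ± 3.07 to 106 ± 2.78 FPKM (log2 change −1.02, limma adjusted p = 3.73e-07). Whether ATF4 has a part in the fall of the synthetases that carry the core was not tested. Among 15 regulators of the integrated stress response 10 were called lower and 1 higher, with the eIF2 phosphatase subunit PPP1R15A (−2.37), the kinase EIF2AK2 (−1.57) and MYC (−1.20) beside ATF4. Of 20 tested ATF4-linked genes of amino acid supply 14 were called lower and 5 higher, with the transporter genes SLC3A2 (−1.09), SLC7A11 (−0.73) and SLC7A5 (−0.59) and the hormone gene STC2 (−0.58) among the lower. All 10 tested genes of the interferon gamma type were called lower, with a median of −1.35, among them GBP1 (60.2 ± 0.835 to 8.93 ± 0.437 FPKM), TAP1 (−2.27) and PSMB9 (−1.82). The shares called lower were 66.7%, 70% and 100% in these lists, against 24.9% over all genes. WARS, which has the interferon-type letters, fell in the libraries where these lists were mostly lower, and whether any of them has a part in its fall was not tested.

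Leaving out each library in turn kept 15 of the 17 calls in every fit. LARS lost its call without shcontrol replicate 1 or 2 or shRBCK1 replicate 1 or 3, and NARS2 lost it whichever library was left out. The split of 6 higher and 11 lower synthetases was 9 and 10 with quantile normalization, 4 and 12 with TMM scaling and 10 and 10 with voom on the recovered reads.

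**Figure D2:**
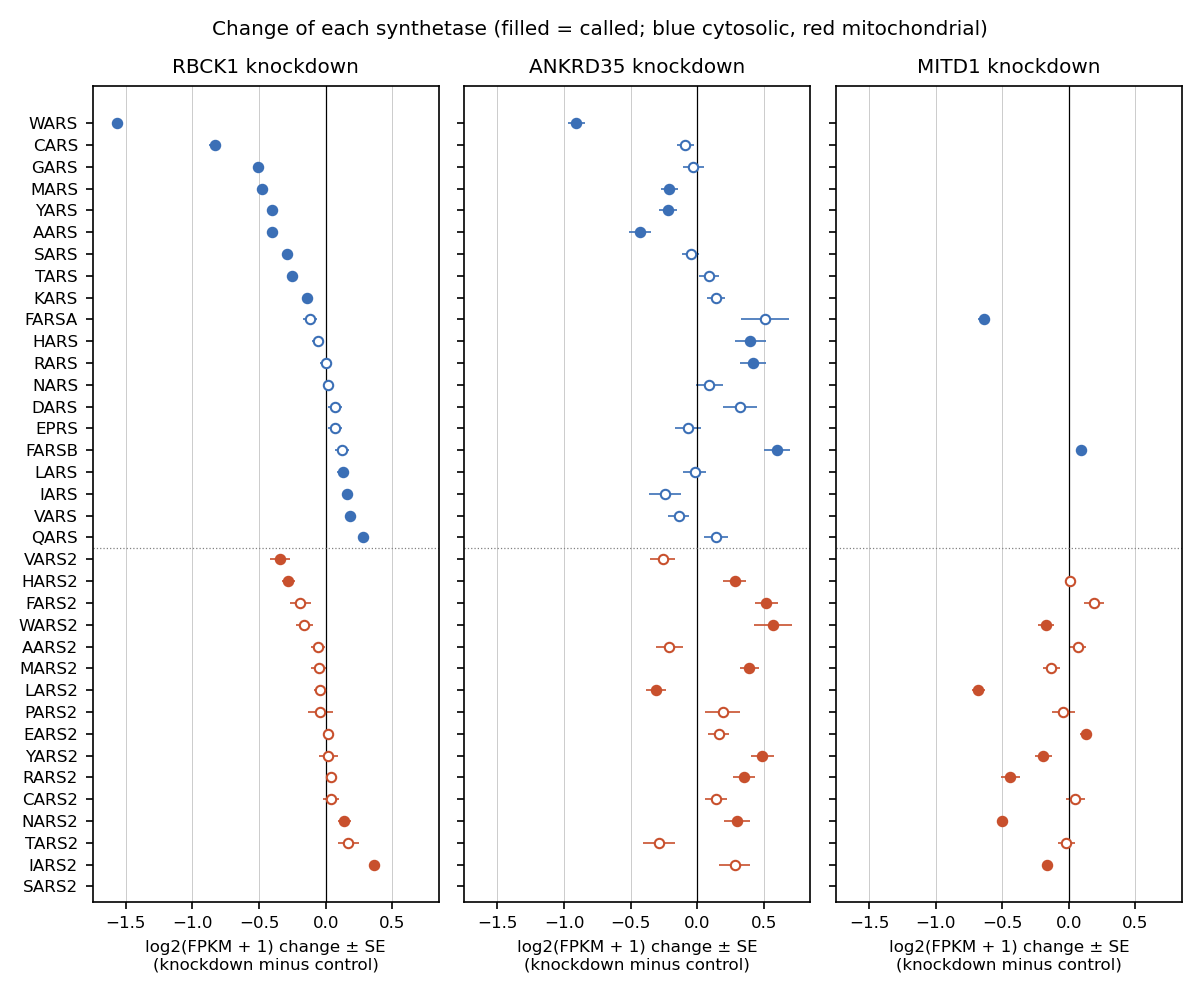
Log2(FPKM + 1) change of each synthetase, knockdown minus control, with its standard error, in the 3 comparisons. Filled points were called by limma, blue marks cytosolic and red mitochondrial genes, and rows without a point were not tested in that table. WARS lies furthest left in the RBCK1 and ANKRD35 panels, and the called mitochondrial genes lie mostly right of 0 for ANKRD35 and left of 0 for MITD1.

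In the ANKRD35 knockdown WARS fell, and more mitochondrial synthetase RNAs were called higher than lower. Of the 20 cytosolic genes 4 were called lower (WARS, AARS, YARS and MARS) and 3 higher (FARSB, RARS and HARS). Of the 15 mitochondrial genes tested 7 were called higher (WARS2, FARS2, YARS2, MARS2, RARS2, NARS2 and HARS2) and 1 lower (LARS2). Over all 11890 genes tested 36.3% were called, 19.4% higher and 16.9% lower, and the mitochondrial share called higher was 46.7%. The median log2 change was −0.03 over the cytosolic genes, 0.28 over the mitochondrial genes and 0.03 over all genes.

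WARS measured 44.6, 45.6 and 43.5 FPKM in the control libraries and 23.0, 23.0 and 24.0 FPKM in siANKRD35. The groups were well separated, and the mean fell by 47.7% (log2 change −0.91, SE 0.064, limma adjusted p = 0.000541). AARS fell from 113.8, 111.9 and 110.6 to 92.4, 76.1 and 81.2 FPKM (log2 change −0.43, limma adjusted p = 0.00964). Its 3 knockdown libraries differed more among themselves than the controls did, without reaching them. YARS fell from 32.6, 30.9 and 31.3 to 27.8, 26.1 and 27.0 FPKM (log2 change −0.22, limma adjusted p = 0.0365), and MARS from 57.5 ± 1.32 to 49.7 ± 1.09 FPKM (log2 change −0.21, limma adjusted p = 0.0404). After correction for gene length and GC content the log2 changes of YARS and MARS were −0.03 and −0.04 and neither was called, while WARS and AARS kept −0.79 and −0.44.

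FARSB, the beta subunit of the cytosolic phenylalanyl-tRNA synthetase, rose from 20.3, 20.1 and 22.3 to 28.7, 35.4 and 32.4 FPKM (log2 change 0.60, limma adjusted p = 0.00449). Its partner FARSA, the alpha subunit, measured 36.1, 33.9 and 33.9 FPKM and then 63.2, 36.9 and 52.0 FPKM. The groups did not overlap but the knockdown libraries spread widely, and FARSA was not called (log2 change 0.51, 95% confidence limits 0.08 to 0.93, limma adjusted p = 0.0639). RARS rose from 28.6, 29.9 and 31.7 to 36.2, 45.8 and 39.8 FPKM (log2 change 0.42, limma adjusted p = 0.0178). HARS rose from 10.5, 9.49 and 9.89 to 15.2, 11.2 and 14.1 FPKM (log2 change 0.40, limma adjusted p = 0.0353). In these genes siANKRD35 replicate 2 was either the highest or the lowest knockdown library. Of the 8 enzymes of the multisynthetase complex 1 was called higher and 1 lower, with a median of 0.06. Of the 12 cytosolic genes outside it 2 were called higher and 3 lower, with a median of −0.04. Over all genes 19.4% were called higher and 16.9% lower. The scaffold genes EEF1E1 and AIMP2 rose from 4.52 ± 0.336 to 7.94 ± 0.311 and from 31.2 ± 3.0 to 44.5 ± 2.15 FPKM, and AIMP1 measured 20.3 ± 0.681 and 23.7 ± 4.40 FPKM (limma adjusted p = 0.265).

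WARS2, the mitochondrial tryptophanyl-tRNA synthetase, measured 2.96, 2.53 and 3.46 FPKM in the controls and 3.96, 5.61 and 5.29 FPKM in the knockdown. WARS2 thus rose (log2 change 0.57, limma adjusted p = 0.0185) where WARS fell. FARS2 rose from 2.715, 3.005 and 3.227 to 4.74, 4.35 and 4.99 FPKM (log2 change 0.52, limma adjusted p = 0.00533). YARS2 rose from 32.9, 34.5 and 36.5 to 47.0, 53.9 and 46.1 FPKM (log2 change 0.49, limma adjusted p = 0.00621), opposite to YARS. MARS2 rose from 7.0, 7.20 and 6.99 to 9.09, 9.44 and 10.1 FPKM (log2 change 0.39, limma adjusted p = 0.00732), opposite to MARS. Of the 13 amino acids with a gene in each compartment, 5 had both genes called in this comparison, 2 of them (histidine and arginine) in the same direction. After the length and GC correction MARS, YARS, HARS2 and RARS2 were not called, and of these 5 pairs only that of tryptophan kept both calls. HARS and HARS2 lie head to head on chromosome 5, and 8.38% of the exonic bases of HARS and 11.7% of those of HARS2 overlap genes of the other strand, each the other among them. RARS2, NARS2 and HARS2 rose by 0.35, 0.30 and 0.28, and LARS2 fell from 4.55 ± 0.245 to 3.47 ± 0.0837 FPKM (−0.31). After the length and GC correction the change of LARS2 was −0.16 and it was not called (limma adjusted p = 0.0574).

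Summed over the mitochondrial genes the level was 160 ± 3.99 FPKM in the controls and 197 ± 11.9 FPKM in siANKRD35. Summed over the cytosolic genes it was 952 ± 5.78 and 940 ± 29.5 FPKM. IARS2 and YARS2, the most abundant mitochondrial members, carried most of the mitochondrial difference in level, although IARS2 was not called (46.5 ± 0.603 to 57.4 ± 9.74 FPKM, limma adjusted p = 0.0998).

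Gene length moved with these changes. Among all genes tested in this table the median log2 change was 0.25 for genes under 3000 bases, 0.11 for those of 3000 to 5000 bases and −0.11 for longer ones, while in the RBCK1 table the same medians lay between −0.01 and 0.02. The mitochondrial synthetase genes were shorter, with a median length of 3962 bases against 5079 for the cytosolic ones. After each library was corrected for length and GC content the mitochondrial median was 0.16 and the cytosolic median 0.03, and 7 mitochondrial genes were called higher and 2 lower, and 7 cytosolic genes higher and 3 lower. These were partly other genes: of the mitochondrial ones HARS2, NARS2, RARS2 and LARS2 lost their calls, and CARS2, EARS2 and IARS2 were called higher and AARS2 and TARS2 lower. CARS2, the longest mitochondrial gene, moved from 0.14 to 0.42, and NARS2 and RARS2 from 0.30 and 0.35 to 0.09 and 0.11. With the correction 45.1% of all genes were called, 26.1% higher and 19% lower.

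**Figure D3:**
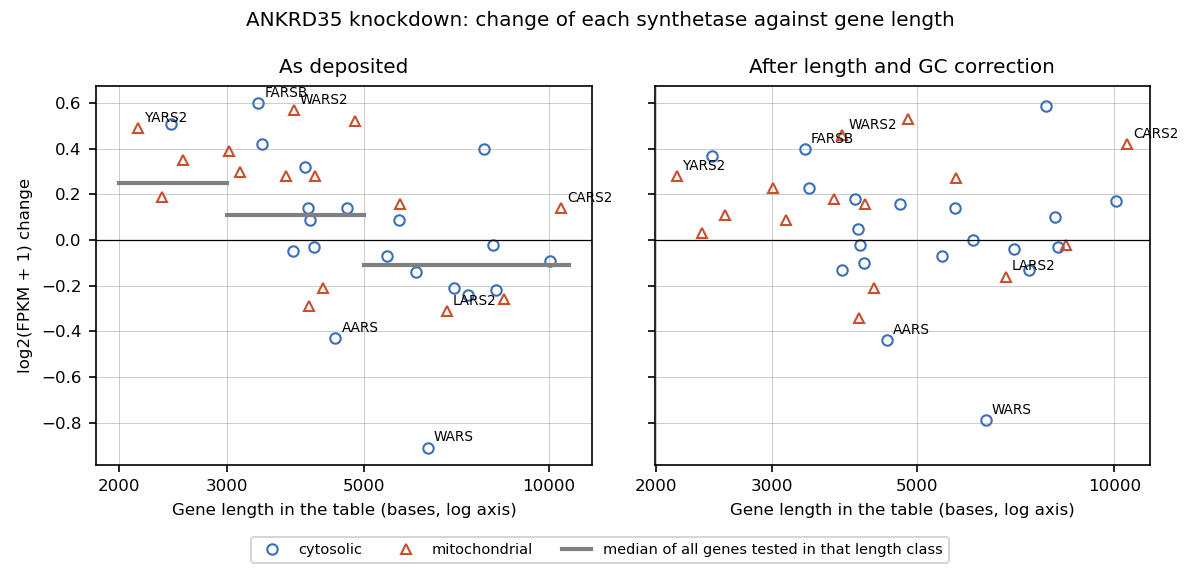
Log2(FPKM + 1) change of the 35 synthetases tested in the ANKRD35 comparison against gene length in bases (log axis), as deposited on the left and after length and GC correction on the right. Circles are cytosolic and triangles mitochondrial genes, and grey lines on the left give the medians of all genes tested in 3 length classes, 0.25, 0.11 and −0.11. The short genes lie above 0 before the correction and nearer to it afterwards, and WARS and AARS stay low in both panels.

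Of 15 regulators of the integrated stress response 3 were called lower and 1 higher, with GCN1, which senses stalled ribosomes for GCN2, lower by 0.98 on the log2 scale (23.7 ± 0.234 to 11.5 ± 0.234 FPKM). DDIT3, the neighbour of MARS, measured 122.7, 126.5 and 122.4 FPKM and then 124.9, 107.1 and 122.4 FPKM and was not called (limma adjusted p = 0.516). Of 21 tested genes of amino acid supply 6 were called lower and 1 higher, led by the transporter genes SLC7A1 (−0.85), SLC7A5 (−0.92) and SLC1A5 (−0.43) and by SESN2 (−0.53), which codes for a leucine sensor. Of 8 tested interferon gamma type genes 3 were called lower and 2 higher, with GBP1 lower (6.26 ± 0.2 to 3.83 ± 0.411 FPKM) and PSMB8 higher (33.3 ± 1.43 to 44.1 ± 1.23 FPKM). The share called was 26.7% of the regulators, 33.3% of the supply genes and 62.5% of the interferon gamma type genes, against 36.3% over all genes. Called lower were 20%, 28.6% and 37.5%, against 16.9% over all genes. Whether the interferon gamma type list has a part in the fall of WARS was not tested.

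The count of 10 synthetases higher and 5 lower depended on single libraries. It was 15 and 7 without siANKRD35 replicate 2, the library that correlated least with its group (Pearson's r from 0.97), 4 and 2 without siANKRD35 replicate 3, 9 and 6 without siANKRD35 replicate 1, and 4 and 2, 5 and 2, and 6 and 2 without control replicates 1, 2 and 3. AARS, WARS, FARSB, FARS2, MARS2 and YARS2 kept their calls in all 6 of these fits, and the other 9 did not. The split was 4 and 9 with quantile normalization and 6 and 8 with voom on the recovered reads.

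**Figure D4:**
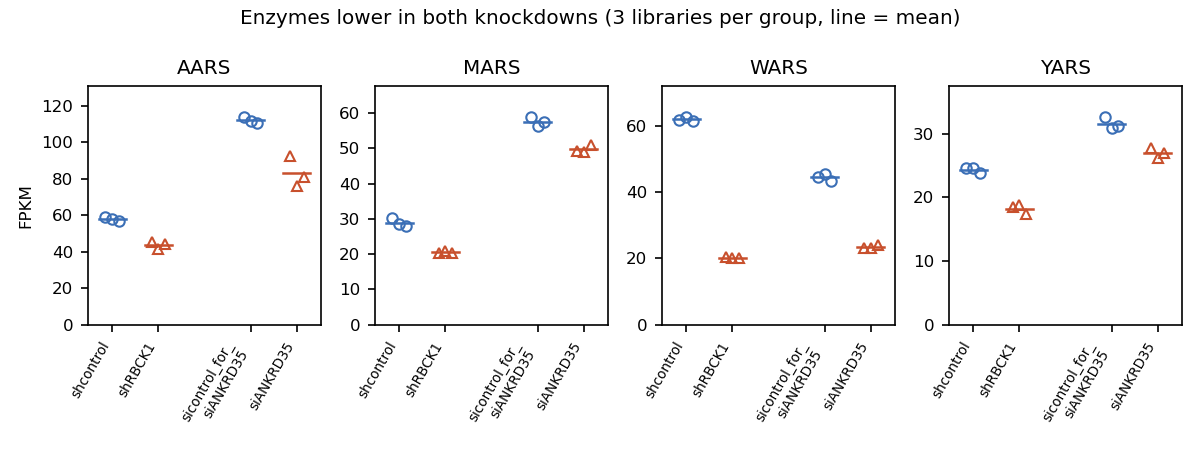
FPKM of AARS, MARS, WARS and YARS, library by library, for the RBCK1 and ANKRD35 comparisons, with a line at each group mean (n = 3) and axes from 0. In each panel the knockdown libraries (triangles) lie below their own controls (circles), and the gap is widest for WARS.

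In the MITD1 knockdown 6 mitochondrial synthetase RNAs fell, led by LARS2, NARS2 and RARS2, and 1, EARS2, rose. Of the cytosolic enzymes only FARSA and FARSB had a row in the MITD1 table. The other 18 had none under either the older or the present symbol and were not analysed. Of 276 symbols at 5 FPKM or more in shcontrol that are no longer current, 25 were matched in the MITD1 table, against 6729 of 6941 current ones, and the symbols of the 18 enzymes are of the older kind. Of the 16 genes tested 7 were called lower and 2 higher, and over all 10415 genes tested 65.6% were called, 35.6% lower and 30% higher (64.9%, 35.7% and 29.2% after a length and GC correction). The 56.2% of synthetases called was thus below the share over all genes. The 14 mitochondrial genes tested had a median log2 change of −0.08, against −0.03 over all genes.

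LARS2, the mitochondrial leucyl-tRNA synthetase, measured 9.48, 9.07 and 10.1 FPKM in the controls and 5.60, 5.66 and 5.45 FPKM in siMITD1. The groups were far apart and the mean fell by 41.8% (log2 change −0.68, limma adjusted p = 5.93e-06). NARS2, for asparagine, fell from 12.0, 12.4 and 12.0 to 8.18, 8.46 and 8.12 FPKM (log2 change −0.50, limma adjusted p = 8.64e-06). RARS2, for arginine, fell from 13.6, 14.8 and 13.4 to 9.30, 9.58 and 11.4 FPKM (log2 change −0.44, limma adjusted p = 0.000744), with siMITD1 replicate 3 nearest to the controls. YARS2 measured 17.7, 16.5 and 18.5 FPKM and then 16.6, 15.3 and 14.1 FPKM, and the groups overlapped although it was called (log2 change −0.19, limma adjusted p = 0.0275). WARS2 and IARS2 fell by 0.17 and 0.16, and EARS2, which charges glutamic acid and feeds the amidation to glutamine in the organelle, rose from 10.1 ± 0.382 to 11.2 ± 0.381 FPKM (0.13). The 7 mitochondrial genes not called lay between −0.13 and 0.19. The sum over the mitochondrial genes was 170 ± 2.0 FPKM in the controls and 151 ± 2.69 FPKM in the knockdown.

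The 2 subunits of the cytosolic phenylalanyl-tRNA synthetase, which work as one tetramer, moved apart. FARSA fell from 50.4, 48.0 and 47.4 to 32.6, 30.6 and 29.6 FPKM (log2 change −0.64, limma adjusted p = 3.39e-06). FARSB measured 31.4, 30.2 and 31.4 FPKM and then 34.2, 32.5 and 32.5 FPKM (log2 change 0.09, limma adjusted p = 0.0432). FARSA thus went from above FARSB in every control library to below it in every knockdown library. The scaffold gene AIMP1 rose from 21.9 ± 0.567 to 30.8 ± 0.664 FPKM (0.48), EEF1E1 fell from 6.36 ± 0.417 to 4.95 ± 0.411 FPKM (−0.31) and AIMP2 was not called (limma adjusted p = 0.105).

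VARS2 was listed at 0 in 5 of the 6 libraries of this table and at 0.00766 FPKM in the last, where it measured 3.17 to 7.20 FPKM in the other tables, which were scaled separately. Of 64 coding genes of the MHC region of chromosome 6, where it lies, that reached 5 FPKM in shcontrol, 48 were under 1 FPKM in the MITD1 control, against 132 of 6550 other coding genes. Low values of VARS2 in that table are therefore given as listed and not as an absence of its RNA.

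**Figure D5:**
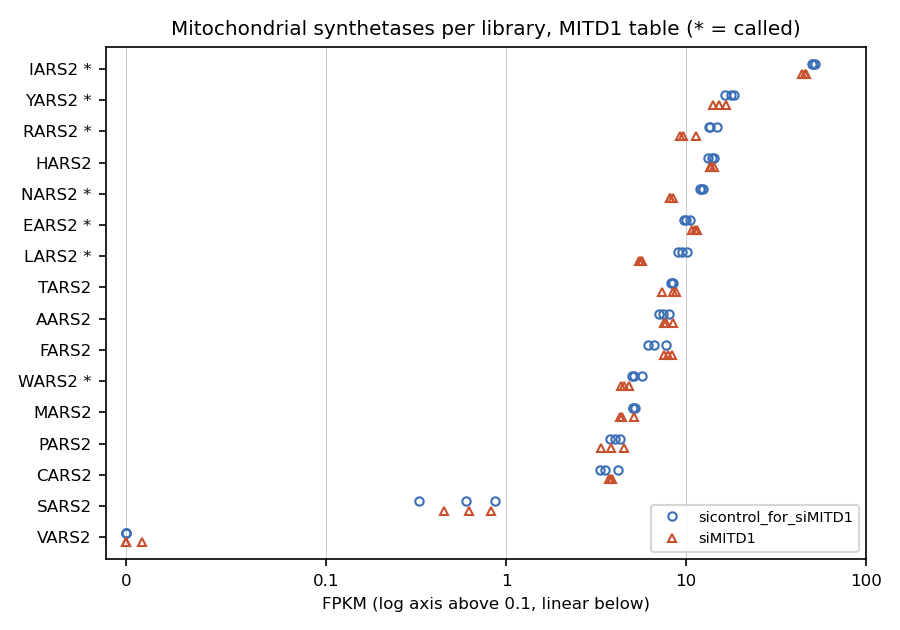
FPKM of the 16 mitochondrial synthetases in each sicontrol_for_siMITD1 library (circles) and siMITD1 library (triangles), on an axis that is logarithmic above 0.1 and linear below, with an asterisk for a call in limma. LARS2, NARS2 and RARS2 show knockdown libraries to the left of all controls, and VARS2 lies at or near 0.

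Of 5 partner genes of mitochondrial charging 2 were called lower with MITD1 and 0 higher. This was 40% called lower, against 35.6% over all genes. The CCA-adding enzyme TRNT1 (4.26 ± 0.199 to 3.51 ± 0.151 FPKM) and the amidotransferase subunit QRSL1 (8.34 ± 1.09 to 6.87 ± 0.226 FPKM) fell. GATC and the formyltransferase MTFMT were not called (limma adjusted p = 0.229 and 0.332). The mitochondrial elongation factor GFM1 fell from 8.50, 8.42 and 8.74 to 2.99, 2.97 and 2.58 FPKM (log2 change −1.31, limma adjusted p = 3.94e-07). In the same libraries 18 of 20 tested ATF4-linked genes of amino acid supply were called higher and 2 lower, among them TRIB3 (48.5 ± 0.391 to 147 ± 1.14 FPKM), CTH (1.22), DDIT4 (0.99) and SLC1A5 (0.62). ATF4 rose by 0.43, DDIT3 by 1.72 and PPP1R15A by 1.60, and 10 of 15 regulators were called higher and 2 lower. The shares called higher were 90% of the supply genes and 66.7% of the regulators, against 30% over all genes. Of the cytosolic synthetases that carry the amino acid response core, none was analysed in this table. The mitochondrial YARS2, which also carries it, was called lower here (−0.19), and whether the core has a part in this was not tested.

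Without single libraries the 2 genes called higher, FARSB and EARS2, became 0 to 2 and the 7 lower became 5 to 7. FARSB lost its call whichever library was left out, and EARS2 without control replicate 1 or 3 or siMITD1 replicate 1 or 3. YARS2 lost its call without control replicate 1 or 3 or siMITD1 replicate 2 or 3, and WARS2 without control replicate 3 or siMITD1 replicate 1 or 3. The split was 3 higher and 5 lower with quantile normalization and with TMM scaling.

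The 3 comparisons share no libraries, so their calls can be set side by side, although a difference between tables was not tested. AARS, MARS, WARS and YARS were lower in both the RBCK1 and the ANKRD35 comparison, 36.4% of the 11 lower in the first and 80% of the 5 lower in the second. Over all genes the same shares were 23.5% and 35.7%. In the ANKRD35 comparison MARS and YARS were not called after the length and GC correction, nor with a replicate block (limma adjusted p = 0.099 and 0.081), while AARS and WARS were called in all 14 alternatives of both comparisons. WARS had the largest change in both, −1.57 and −0.91. HARS2 was lower with RBCK1 and higher with ANKRD35, where its call held in 3 of 14 alternatives. NARS2 was higher in both of these and lower with MITD1. Its calls with RBCK1 and with ANKRD35 each held in 4 of 14 alternatives. NARS2, RARS2, WARS2 and YARS2 were called higher with ANKRD35 and lower with MITD1, 40% of the 10 higher in the first and 57.1% of the 7 lower in the second, against 36.1% and 22.4% over all genes. Of these, NARS2 and RARS2 were not called with ANKRD35 after the length and GC correction. WARS2 and YARS2 kept their MITD1 call in 8 and 7 of 14 alternatives. LARS2 was called lower in both of those, by 0.31 (not called after the length and GC correction) and 0.68, and was not called with RBCK1 (9.58 ± 0.437 to 9.26 ± 0.306 FPKM, limma adjusted p = 0.452). Of the mitochondrial genes tested in all 3 comparisons, PARS2, CARS2, AARS2 and TARS2 were called in none. Their 95% confidence limits spanned −0.26 to 0.35 with RBCK1, −0.57 to 0.51 with ANKRD35 and −0.24 to 0.21 with MITD1. Those of TARS2 with ANKRD35 were −0.57 to −0.01. After the length and GC correction CARS2 was called higher and AARS2 and TARS2 lower with ANKRD35 (limma adjusted p = 0.0035, 0.0232 and 0.0217). With RBCK1 the same correction had TARS2 called higher (limma adjusted p = 0.0295).

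Genes of the steps beside charging were counted in the same way. Of 5 partners of mitochondrial charging none was called with ANKRD35 (limma; the lowest adjusted p was 0.126), and with RBCK1 TRNT1 and MTFMT fell by 0.30 and 0.20. Among genes of tRNA proofreading, modification and selenocysteine, YRDC, which serves the threonylcarbamoyl modification of tRNA, fell with RBCK1 (24.2 ± 1.84 to 14.4 ± 0.353 FPKM) and rose with ANKRD35 (24.7 ± 1.01 to 32.1 ± 1.09 FPKM) and MITD1 (12.9 ± 0.324 to 16.4 ± 1.08 FPKM). In that list 1 gene was higher and 2 lower of 5 tested with RBCK1, 2 and 0 of 5 with ANKRD35, and 1 and 2 of 6 with MITD1. Among genes that carry charged tRNA to the ribosome or tRNA out of the nucleus, 1 was higher and 1 lower of 9 tested with RBCK1, 2 and 1 of 9 with ANKRD35, and 3 and 4 of 7 with MITD1. The shares called in these lists stand beside 49.1%, 36.3% and 65.6% over all genes in the 3 comparisons, and with so few genes nothing is read from them. EEF1A2, a form of the factor that delivers charged tRNA, was in each of these counts, higher by 0.42 with RBCK1 and lower by 0.36 and 0.33 with ANKRD35 and MITD1.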

How the data were processed

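Levels were the FPKM values of 18 libraries as the authors deposited them in 3 separately scaled tables. Per the labels' protocols a directional kit was used, and the submitters' processing notes name the genome build mm10, while the start, end and strand of all 36 synthetase genes equal those of GENCODE 29 on GRCh38. Not given in the sources used here are the aligner, the counting tool and the counting strand. A further 6 value columns of the ANKRD35 table match no sample title and were not used, and its knockdown columns are headed as a hairpin where the titles name an siRNA. Reads were recovered as FPKM times gene length over a library's step, with a tolerance of 0.01 reads, and were whole for 100% of values in the RBCK1 and ANKRD35 tables and for 91.9% of 18028 symbols in the MITD1 table.

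Each comparison was fitted within its table with limma 3.58.1 (R 4.3.3, limma-trend, two-sided, no replicate block) on log2(FPKM + 1) for genes that reached 1 FPKM in 3 or more libraries, and called at an adjusted p under 0.05. The fit was tried on simulated counts with the same spread setting for every gene and no length trend. That run does not cover the wider spread and the length trend of the ANKRD35 libraries, and nothing is read from it. The design allowed for counts, and since the tables hold FPKM the count tests were not run. Alternatives were a pseudocount of 0.1, no filter, a filter at 5 FPKM, quantile and TMM scaling, a length and GC correction, a replicate block, voom on recovered reads (chosen after seeing the data) and each library left out. Named were all 36 genes, with values per library for WARS and for up to 6 cytosolic and 4 mitochondrial called genes of largest change, and up to 4 genes of smallest adjusted p per context list, of which 1 gene is not reported here. The members and lists were chosen with earlier results of these data known. Groups and replicate numbers came from the sample titles. Within groups, Pearson's r between libraries was 0.97 or higher. The fewest reads behind a tested synthetase in a library were 85, for PARS2.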

Additional observations from a re-analysis of the deposited data

How the results depend on the processing

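Over 14 alternatives per comparison no called synthetase changed direction. In the RBCK1 comparison 10 of 11 lower and 4 of 6 higher genes kept their call in all 14, in the ANKRD35 comparison 2 of 5 and 3 of 10, and in the MITD1 comparison 5 of 7 and 0 of 2 among the alternatives that gave them a value. With voom on recovered reads (chosen after seeing the data) the RBCK1 count of higher genes was 10 in place of 6, the ANKRD35 counts 6 higher and 8 lower in place of 10 and 5, and the MITD1 count of higher genes 1 in place of 2. Quantile normalization gave 4 higher and 9 lower for ANKRD35. Without the filter on low values ANKRD35 had 6 higher and MITD1 1 higher, and the length and GC correction left 1 higher for MITD1. Leaving out 1 library gave 4 to 15 higher and 2 to 7 lower for ANKRD35, and 0 to 2 higher for MITD1. The cause was not tested.

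The replicate number as a block gave 4 higher and 11 lower for RBCK1, 9 and 3 for ANKRD35 (5 lower without it) and 2 and 7 for MITD1. Same-numbered libraries correlated in their deviations by −0.0874 to 0.179, so the numbers were not taken as pairing the samples. The planned edgeR and DESeq2 tests on recovered reads were not run. ANKRD35 itself passed the filter only through its controls and had no value where a control library was left out, and FARS2, HARS2 and LARS2 had no whole reads for voom in the MITD1 table. The fewest reads lay behind PARS2, in each of the 3 tables.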
